A study of Mus musculus with 3 samples.

Results

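The cells described here are T cells that carry transcripts of NK cell receptors and no detected transcript of Trdc, the constant gene of the T cell receptor delta chain, taken from CD45+ cells sorted out of KP1 tumors in 3 single-cell RNA sequencing libraries. KP1 is a mouse small-cell lung cancer cell line. The cells were selected on unique molecular identifiers (UMIs), each of which stands for 1 captured RNA molecule. A cell was taken when it held at least 2 UMIs of Cd3d, Cd3e and Cd3g together and at least 2 UMIs of Klra1, Klra5, Klra6, Klra7 and Klrb1c together. It also had to hold 0 UMIs of Trdc, Cd4 and Foxp3, and fewer than 5 of Lyz2, C1qa, C1qb, S100a8 and S100a9 together. Barcodes were kept when 200 or more genes were detected and mitochondrial UMIs did not exceed 20%, and of the 71909 kept, 4293 met these conditions. They are called NK-receptor T cells below, and what the selection used is given as a description only. Cells with at least 3 UMIs of Mki67 and Top2a together were called cycling, and 1720 of the 4293 were.

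Female B6129SF1/J mice, an F1 hybrid of the B6 and 129 strains with a wild-type genotype label, received 500000 KP1 cells under the skin. The mono-IL-10 group was given an engineered single-chain form of the cytokine IL-10. The IL-10/2-Trikine group was given a fusion built to engage receptor chains of IL-10 and IL-2 together, and the combination group received this fusion with an antibody against PD-1 (clone RMP1-14). The labels give each cytokine at 3 µg on alternate days from day 7 to day 19 with tumors taken on day 19, whereas the study's text elsewhere has an earlier first day for this model, and it was not settled which holds here. The antibody was given at 200.0 µg on days 7, 11, 15 and 19. One reading of the protocol has every group receiving the antibody, but only the combination carries it in its title and treatment label, which were followed. There was 1 library per group, and the number of mice behind each is not given, so no test between treatments was possible. Values from all 3 libraries are given in the order mono-IL-10, IL-10/2-Trikine and combination. The samples were labelled as T cells although the sort was on CD45, and T cells were therefore found by the conditions above.

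Ly49 receptors, encoded by the Klra genes, are lectin-like proteins that bind MHC class I molecules, and most of them restrain the cell that carries them. Klrb1c encodes NK1.1, a member of the NKR-P1 family that defines NK cells in B6 mice. Besides NK cells, these receptors are known on natural killer T cells, on part of the gamma-delta T cells, on intraepithelial T cells and on a small part of CD8 T cells, some of which express the transcription factor Helios (Ikzf2). IL-2 and the related IL-15 drive growth and cytotoxicity in all of these cells through the receptor chain encoded by Il2rb, while IL-10 acts through STAT3.

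Total UMIs per library ranged from 158570946 to 197176873, and 22235 to 26967 barcodes per library passed the limits. Pairs of libraries shared 137 to 180 barcodes, and 1 barcode was an NK-receptor T cell in both of the libraries that shared it. Of all kept barcodes, 17.6%, 17.8% and 21.3% were called doublets, that is droplets that may hold a pair of cells. Among NK-receptor T cells the called share was 33.2%, 16.3% and 32.4%, against 8.69%, 8.88% and 12.1% of the CD8 T cells, 4.80%, 2.12% and 6.08% of the NK cells and 22.9%, 18.4% and 30.9% of the Trdc T cells described next. Leaving called doublets out changed the ratio of their share, IL-10/2-Trikine to mono-IL-10, from 6.42 to 8.06.

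NK-receptor T cells made up 1.75% of kept barcodes in the mono-IL-10 library (389 cells, exact 95% interval 1.58 to 1.93%). The share was 11.2% in the IL-10/2-Trikine library (2551 cells, 10.8 to 11.7%) and 5.02% in the combination library (1353 cells, 4.76 to 5.28%). The 3 intervals did not overlap, and IL-10/2-Trikine stood 6.42-fold above mono-IL-10 (95% interval 5.78 to 7.13) while the combination stood at 0.447 of IL-10/2-Trikine (0.419 to 0.476). These intervals and those that follow cover counting error only, not the spread between mice or libraries. As a share of barcodes with at least 2 Cd3 UMIs the values were 4.71%, 19.7% and 10.6%, with a ratio of 4.19 (3.78 to 4.64) and then 0.535 (0.503 to 0.569). Applying the conditions after each cell had been thinned at random to 2000 UMIs gave 1.38%, 9.49% and 4.37%. Barcodes with fewer UMIs were left out here, 4633, 3122 and 5567 of them, and wherever thinning is used below.

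The other populations set beside them were 3. CD8 T cells without any UMI of the 5 NK receptor genes held 17.8%, 15.96% and 13.1% of kept barcodes. NK cells without Cd3 UMIs held 1.69%, 2.49% and 2.62%. T cells with Trdc UMIs, whether or not they carried NK receptors, held 0.648%, 3.33% and 1.36%. The ratio of IL-10/2-Trikine to mono-IL-10 was thus 0.899 for CD8 T cells, 1.48 for NK cells and 5.14 for Trdc T cells, beside 6.42 for NK-receptor T cells. From IL-10/2-Trikine to the combination the ratio was 0.820 for CD8 T cells, 1.05 for NK cells and 0.408 for Trdc T cells, beside 0.447. Shares of 1 library sum to a whole, and C1q macrophages held 26.3%, 12.6% and 19.6% of kept barcodes in the same libraries.

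Cycling cells were 19.0% of NK-receptor T cells in the mono-IL-10 library (74 of 389), 49.98% in the IL-10/2-Trikine library (1275 of 2551) and 27.4% in the combination library (371 of 1353). The ratio was 2.63 (2.13 to 3.24) for IL-10/2-Trikine over mono-IL-10 and 0.549 (0.499 to 0.603) for the combination over IL-10/2-Trikine. With a single Mki67 or Top2a UMI as the limit, the first ratio was 1.65. Cells with more UMIs pass such a limit more easily, and the median depth of NK-receptor T cells was 5196, 7800 and 4833 UMIs. After each cell was thinned to 2000 UMIs, the cycling shares were 12.2%, 32.4% and 15.2%, a ratio of 2.66 (2.03 to 3.50) and then 0.468 (0.407 to 0.538). The other populations stood in the same order after thinning, with 10.3%, 25.7% and 12.5% of CD8 T cells, 2.96%, 10.7% and 3.71% of NK cells and 6.94%, 23.8% and 8.22% of Trdc T cells. Unthinned, the cycling shares were 17.9%, 38.5% and 18.8% of CD8 T cells, 4.27%, 14.9% and 6.08% of NK cells and 11.1%, 34.9% and 15.3% of Trdc T cells.

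Cells outside the cycle also took a larger share of the IL-10/2-Trikine library. NK-receptor T cells that were not cycling made up 1.42%, 5.62% and 3.64% of kept barcodes, a ratio of 3.97 (3.51 to 4.48) and then 0.648 (0.597 to 0.703). Those that were cycling made up 0.333%, 5.62% and 1.38%, a ratio of 16.9 (13.4 to 21.3) and then 0.245 (0.219 to 0.275). The ratios were thus further from 1 among cycling cells in both comparisons.

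**Figure D1:**
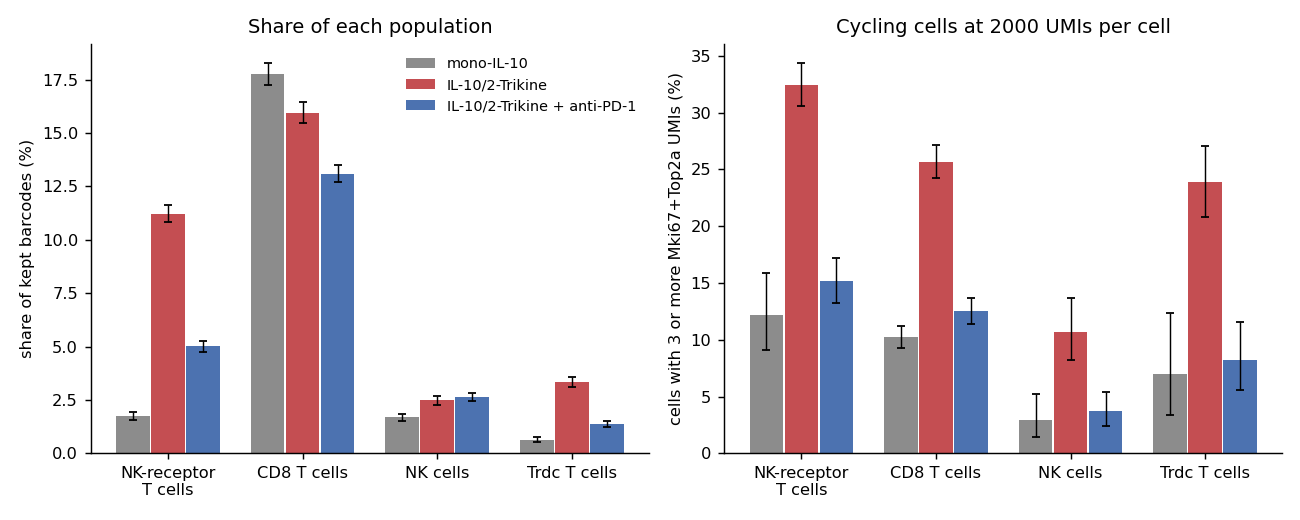
Left, the share of kept barcodes (%) held by NK-receptor T cells and by the CD8 T, NK and Trdc T cells they were compared with. Right, the share of cells (%) with at least 3 Mki67 and Top2a UMIs after thinning to 2000 UMIs per cell. Each bar is 1 library and each error bar an exact 95% interval for counting error. NK-receptor T cells went from 1.75% to 11.2% and 5.02% of kept barcodes while CD8 T cells stayed between 13.1% and 17.8%, and the IL-10/2-Trikine library had the highest cycling share in all 4 populations.

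The selection cut through a continuous range of receptor counts. Exactly 2 receptor UMIs, the lowest number accepted, were found in 69, 155 and 140 NK-receptor T cells, and 178, 392 and 376 cells that met every other condition were left out with 1 receptor UMI. Cells left out for a Trdc UMI alone numbered 94, 521 and 338, and those left out for Cd4 or Foxp3 UMIs alone numbered 69, 429 and 280. At the Cd3 limit, 24, 91 and 124 cells inside had exactly 2 Cd3 UMIs, and 99, 194 and 303 outside had 1. Too many myeloid UMIs alone left out 116, 156 and 146 cells. Near the cycling limit, 4, 54 and 17 cells held exactly 3 Mki67 and Top2a UMIs and 16, 81 and 43 held 2.

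Each of the 5 receptor genes that chose the cells was found in all libraries. In the cells that were not cycling, the inhibitory receptor gene Klra7 (Ly49G) was at 626, 865 and 687 CPM, its count per 1000000 UMIs summed over these cells. Klra1 (Ly49A) was at 308, 474 and 436 CPM and Klra5 (Ly49E) at 216, 471 and 355 CPM. Klra6 (Ly49F) stood at 240.3, 281 and 234 CPM, and Klrb1c at 146, 191 and 205 CPM. A cell often carried several of the 5 genes: 22.6%, 12.3% and 15.6% had UMIs of 1 gene only, whereas 2.57%, 10.2% and 3.70% had all 5. Klrb1c was detected in 39.3%, 45.9% and 42.7% of cells, so 60.7%, 54.1% and 57.3% carried Ly49 UMIs without it. Ly49 genes are near-identical copies of one another, and these mice carry the 129 form of the gene cluster beside the B6 form that the reference holds, so the division of reads among Klra genes is uncertain.

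Most NK-receptor T cells held transcripts of the alpha-beta T cell receptor. UMIs of Trac together with Trbc1 or Trbc2 were found in 83.8%, 90.2% and 79.2% of them, and at least 1 of these 3 genes in 97.7%, 99.2% and 95.6%. At 2000 UMIs per cell, Trac was detected in 72.8%, 73.2% and 66.1%, against 87.6%, 84.2% and 86.9% of CD8 T cells, 27.1%, 28.6% and 28.3% of Trdc T cells and 4.57%, 4.21% and 6.39% of NK cells. Gamma chain constant transcripts were common as well. A UMI of Trgc1, Trgc2 or Trgc4 was present in 47.0%, 68.5% and 54.4%, but 5.14%, 3.41% and 5.76% had one without Trac. At 2000 UMIs, Trgc2 was found in 22.8%, 29.7% and 22.7% of NK-receptor T cells, in 7.67%, 16.6% and 19.0% of CD8 T cells, in 33.3%, 45.1% and 43.1% of Trdc T cells and in 0.269%, 0.383% and 0.743% of NK cells. The delta chain variable gene Trdv4 had 6, 19 and 30 UMIs in the cells that were not cycling, or 3.60, 3.09 and 6.79 CPM, against at most 0.455 CPM in CD8 T cells and 4.98, 14.2 and 9.50 CPM in Trdc T cells. Of 5 gamma-delta genes tested against NK cells as described below, 4 were higher in NK-receptor T cells and Trdv4 was lower. Trdv4 was thus not confined to T cells. A T cell whose Trdc RNA was not captured would also pass the selection, and gene counts at this depth do not tell such cells from cells without Trdc RNA.

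CD8 coreceptor transcripts were not detected in most of the cells. At 2000 UMIs per cell, Cd8b1 was found in 16.3%, 9.26% and 12.7% of NK-receptor T cells, in 83.3%, 84.7% and 85.8% of CD8 T cells, which it helped to choose, and in 6.16%, 8.33% and 6.49% of B cells. Without thinning, no Cd8a or Cd8b1 UMI was found in 58.4%, 68.3% and 68.1%, and both genes were found in 19.5%, 11.8% and 13.8%. Cd8a without Cd8b1 was found in 14.4%, 15.8% and 13.2%. Cells with no Cd8 UMI had a median depth of 4503, 6473 and 4112 UMIs against 6990.5, 10013.5 and 8010.5 in cells with 1 or more, so the share of cells that lacked the transcript is not known. The cells without a Cd8 UMI stood 7.52-fold above mono-IL-10 in the IL-10/2-Trikine library as a share of kept barcodes (6.56 to 8.62) and those with at least 1 stood 4.88-fold above it (4.13 to 5.78). From IL-10/2-Trikine to the combination, the ratios were 0.445 (0.412 to 0.481) and 0.450 (0.401 to 0.505). Cycling was more frequent where Cd8 was found, at 27.8%, 63.5% and 44.2% of cells with a Cd8 UMI and 12.8%, 43.7% and 19.5% of cells without one. Deeper cells are more likely to show both Cd8 and cycling UMIs, and those 2 shares were not thinned.

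Several genes that did not enter the selection differed from CD8 T and NK cells. Ikzf2, which encodes Helios, was detected at 2000 UMIs per cell in 66.3%, 77.7% and 67.4% of NK-receptor T cells. The share was 20.5%, 28.6% and 34.6% in CD8 T cells and 14.5%, 13.8% and 12.8% in NK cells, below NK-receptor T cells in each library, and 65.3%, 69.6% and 73.1% in Trdc T cells. Fcer1g, the signalling adaptor of Fc receptors and of several NK receptors, was found in 50.3%, 60.0% and 62.7% of NK-receptor T cells, between CD8 T cells (8.21%, 5.79% and 8.47%) and NK cells (93.0%, 93.3% and 96.3%), with Trdc T cells at 45.1%, 50% and 62.0%. The adaptor gene Tyrobp (DAP12) lay between them too, at 32.4%, 29.7% and 43.1%, with 4.08%, 3.61% and 4.50% of CD8 T cells, 94.6%, 94.4% and 94.7% of NK cells, and 23.6%, 25.2% and 36.5% of Trdc T cells. Ncr1, which encodes the activating receptor NKp46, was found in 14.8%, 12.4% and 19.0% of NK-receptor T cells and 15.3%, 14.9% and 21.2% of Trdc T cells, and it was a selecting gene for the NK cells. Of the B cells, which should lack these genes, 4 of 754, 6 of 143 and 2 of 155 met the whole selection, or 0.531%, 4.196% and 1.29%. Those had a median depth of 21760.5, 14913 and 7737 UMIs against 3882, 4547 and 5278 for all B cells, and whether free RNA or mixed droplets gave these counts was not tested.

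**Figure D2:**
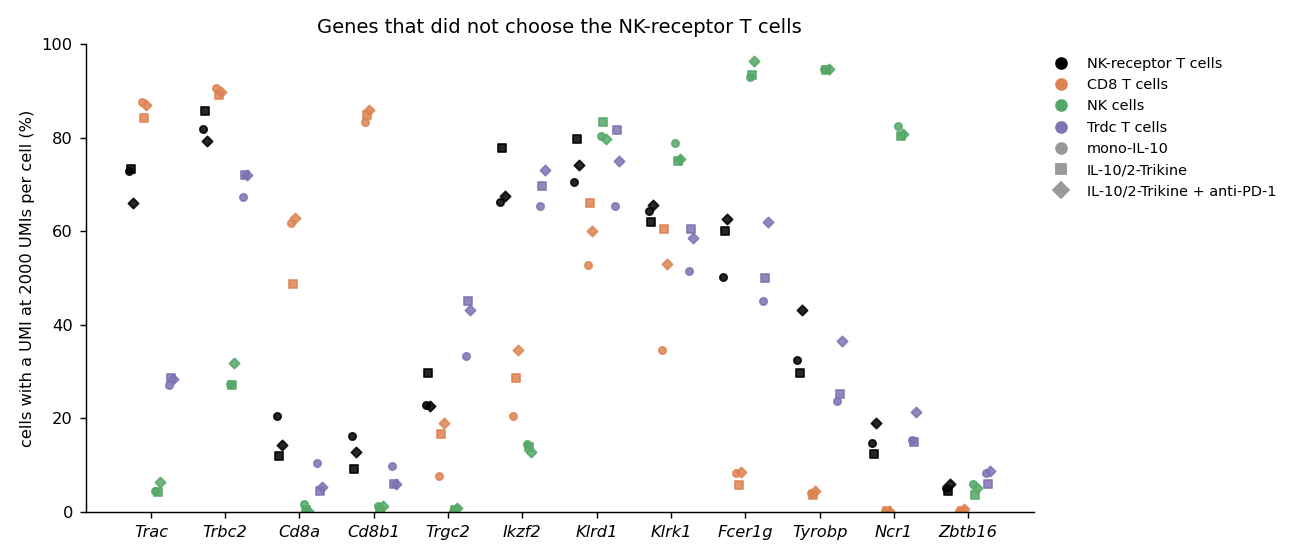
Share of cells (%) with a UMI of each gene after thinning to 2000 UMIs per cell, for NK-receptor T, CD8 T, NK and Trdc T cells, 1 mark per library. Cd8a and Cd8b1 chose the CD8 T cells and Ncr1 the NK cells. Ikzf2 was found in 66.3% to 77.7% of NK-receptor T cells, above CD8 T and NK cells in every library, while Fcer1g and Tyrobp lay between those populations.

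Markers of other cells were measured as well. In NK-receptor T cells that were not cycling, 7 B cell markers summed to 109, 88.4 and 70.4 CPM, and 10 macrophage and monocyte markers to 111, 51.7 and 94.4 CPM. Neutrophil markers summed to 2.40, 10.1 and 2.04 CPM, ILC2 markers to 89.9, 97.3 and 103 and dendritic cell markers to 118, 177 and 192. The 6 CD4 and regulatory T cell markers summed to 334, 458 and 347 CPM, with 4 of them detected, Cd4 and Foxp3 being at 0 by selection. KP1 tumor cell markers, which include the cell cycle gene Stmn1, summed to 76.1, 176 and 113 CPM beside 81.9, 173 and 171 CPM in CD8 T cells, and their part in the differences between libraries was not tested. C1qa, a selecting gene through the myeloid limit, was found at 2000 UMIs in 4.66%, 0.885% and 3.28% of NK-receptor T cells and in 4.34%, 0.758% and 6.49% of B cells. The B cells were held to the same myeloid limit, so these shares cannot show whether C1qa was at the background level. A droplet holding a CD8 T cell and an NK cell would meet the selection. The called doublets were left out as an alternative, and what part uncalled ones had in the results was not tested.

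NK-receptor T cells were next compared with CD8 T cells that lacked NK receptor UMIs, to show what separated them from conventional cytotoxic T cells of the same tumors. Counts of cells that were not cycling were summed per population and library and compared within the 3 libraries by edgeR's quasi-likelihood test with Benjamini-Hochberg adjustment, which treats libraries of different treatments as the replicates (n = 3). Of 11535 genes tested, 1207 (10.5%) were higher in NK-receptor T cells and 1008 (8.74%) were lower at an adjusted p below 0.05. With DESeq2 in place of edgeR 649 genes were higher and 493 lower, and with edgeR but no library term 413 and 245. Genes used to select either population were left out. NK cell receptors, their adaptors and a few effectors stood higher, and genes of the T cell receptor complex, inhibitory receptors and interferon-stimulated genes stood lower.

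Among NK receptor genes higher than in CD8 T cells, Ncr1 was at 147, 109 and 164 CPM against 1.46, 2.50 and 1.64 CPM (log2 difference 6.30, adjusted p = 8.4e-09). The Ly49 genes Klra4 and Klra9 had log2 differences of 5.93 and 5.85, with 178, 104 and 164 CPM of Klra4 against 2.65, 2.16 and 2.64. Klrb1b, an inhibitory NKR-P1 receptor, was 3.62 higher on the log2 scale. The adaptors were clearly above CD8 T cells, with Fcer1g at 561, 779.5 and 899 CPM against 57.6, 78.4 and 62.2 (log2 difference 3.50, adjusted p = 2.0e-08) and Tyrobp at 449, 491 and 695 against 28.7, 47.2 and 34.2 CPM (3.91, adjusted p = 9.6e-08). Clnk, an adaptor of immune receptor signalling, was at 91.1, 111 and 134 CPM against 1.19, 1.93 and 1.64 CPM. These genes were named for large differences in the same direction in all 3 libraries, so their separation from CD8 T cells follows from that choice.

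Other genes far above CD8 T cells were the granzyme gene Gzmc, with 57.5, 86.9 and 117 CPM against 4.24, 4.32 and 13.2 CPM, and Car2, which encodes a carbonic anhydrase, with 299, 364 and 328 against 19.1, 29.1 and 35.9 CPM. Atp1b1, a sodium pump subunit, had a log2 difference of 4.002, Trgc4 one of 3.78 and the unnamed gene ENSMUSG00000121360 one of 5.43. The genes furthest below CD8 T cells included some of T cell signalling and others with no such role. Themis, needed for T cell selection and receptor signalling, was at 275, 132 and 145 CPM against 751, 515 and 629 (log2 difference −1.84, adjusted p = 1.6e-06). Cd5 and Cd6, a pair of related receptors that dampen T cell receptor signals, had log2 differences of −1.58 and −1.63. Pdcd1, which encodes PD-1, was at 36.0, 60.3 and 87.2 CPM against 108, 209 and 298 CPM (−1.74, adjusted p = 1.4e-07). The chemokine receptor gene Cxcr6 was lower by −1.54, and Ifi27l2a, an interferon-stimulated gene, by −1.46. Fam169b (−2.31), Gm44174 (−2.13), Gm8369 (−1.94), BE692007 (−1.71), Esm1 (−1.60) and Lamc1 (−1.47) made up the rest of the 12 largest differences in that direction.

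Counts by group are read beside the 10.5% of all genes that were higher and the 8.74% that were lower. By group, 15 of 16 genes of the T cell receptor complex and T cell identity were lower than in CD8 T cells and 0 were higher. Of the NK receptor families, 5 of 7 tested Ly49 genes, 8 of 9 CD94/NKG2 genes and 5 of 6 NKR-P1 genes were higher, and of the other NK receptors and adaptors 7 of 11 were higher and 2 lower. NK receptor UMIs were required of one population and absent from the other, and reads cannot be divided with certainty among the Klra copies, so the counts and levels of the Ly49 and NKR-P1 genes partly restate the selection and are a description. Inhibitory receptors went the other way, with 7 of 10 lower and 1 higher. Type I interferon-stimulated genes were lower for 21 of 33 and higher for 1, and the GTPases induced by interferon-gamma were lower for 10 of 14 and higher for 0. Antigen receptor signal genes were higher for 9 of 15 and lower for 2. Of 14 such genes tested against NK cells, 1 was higher and 11 were lower, beside 12% and 13.5% of all genes tested. Cytotoxic effectors were higher than in CD8 T cells for 7 of 14 and lower for 4. A list of 12 genes linked with Ly49-bearing CD8 T cells had 9 higher and 1 lower. Against NK cells, 4 of these 12 were higher and 4 lower, beside 12% and 13.5% of all genes tested. Against Trdc T cells, 1 was higher and 1 lower, beside 0.561% and 0.583%. The median log2 difference from CD8 T cells over all genes tested was 0.00. It was −0.48 for the T cell genes, 5.85 for Ly49 genes, −0.93 for inhibitory receptors and −0.49 for type I interferon-stimulated genes.

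The receptor chains through which the treatments act were measured too. Il2rb, the chain shared by IL-2 and IL-15, was at 467, 439 and 587 CPM in NK-receptor T cells, above CD8 T cells at 201, 211 and 275 CPM (log2 difference 1.13, adjusted p = 6.1e-07 by edgeR's quasi-likelihood test) and below NK cells at 835, 712 and 842 CPM (−0.71, adjusted p = 2.8e-09). Il10ra, the chain that binds IL-10, was at 41.3, 24.2 and 24.0 CPM, below CD8 T cells at 67.8, 38.9 and 46.2 CPM (−0.77, adjusted p = 0.00041). Il12rb2, a chain of the IL-12 receptor, was at 176, 167 and 211 CPM against 51.6, 47.4 and 56.6 CPM in CD8 T cells (1.85). Of 18 cytokine receptor chains 6 were higher than in CD8 T cells and 3 lower, beside 10.5% and 8.74% of all genes tested. Of 16 tested against Trdc T cells, 0 were higher and 1, Il7r, was lower, beside 0.561% and 0.583%.

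Set against NK cells, NK-receptor T cells were higher for 1109 genes (12%) and lower for 1243 (13.5%) of 9229 tested in the same way. DESeq2 gave 479 and 603, edgeR without the library term 407 and 531, and edgeR with cycling cells kept 2017 and 1880. The T cell genes here turned the other way, with 15 of 16 higher and 1 lower, and the NK receptor families were mostly lower. Cd3 UMIs were required of one population and absent from the other. The counts and levels of T cell genes thus partly restate the selection and are a description. Trac was at 925, 869 and 813 CPM against 27.8, 30.0 and 39.8 CPM (log2 difference 4.66, adjusted p = 1.1e-21). Trgc2 (6.01), Cd8a (5.11), Cd8b1 (4.97), Themis (4.65) and Bcl11b, a factor of T cell commitment (3.54), were also far above NK cells, as was Ikzf2, at 1346, 1501 and 1415 CPM against 111, 133 and 167 CPM (3.33, adjusted p = 2.3e-20). Dpp4, the surface peptidase CD26, was higher by 4.40, Adam19 by 3.99, Gm8369 by 4.46, Ifitm1 by 3.70 and Cxcr6 by 2.92.

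The genes furthest below NK cells included protease, chemokine and receptor genes. Serpinb9b, a protease inhibitor, was at 7.79, 19.2 and 38.7 CPM against 295, 386 and 362 CPM (log2 difference −3.96, adjusted p = 8.3e-17). Cma1, a chymase, differed by −3.73 and the chemokine gene Ccl9 by −3.65. Among receptors, Klra8 (Ly49H) was at 96.5, 37.0 and 103 CPM against 576, 402 and 411 CPM (−2.67), Klra4 differed by −2.42, Klrb1b by −2.53 and Klri2 by −2.49. Itgam, the integrin CD11b that marks mature NK cells, was at 41.3, 33.8 and 42.6 CPM against 218, 184 and 231 CPM (−2.47, adjusted p = 3.6e-17). Vegfa (−2.65), Styk1 (−2.58), Cdk14 (−2.58) and ENSMUSG00000121359 (−2.94) completed the 12 largest differences. By group, 6 of 7 Ly49 genes, 6 of 9 CD94/NKG2 genes and 4 of 5 NKR-P1 genes were lower, of 13 cytotoxic effectors 8 were lower and 3 higher, and of 19 STAT3 and STAT5 response genes 13 were lower and 2 higher. Inhibitory receptors were higher than in NK cells for 7 of 9 and type I interferon-stimulated genes for 15 of 26, with 1 lower in each group.

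Genes were then sought that stood above both CD8 T and NK cells. Of 3059 genes with at least 50 CPM in NK-receptor T cells of all libraries, 5 were at least 2-fold above both populations in each library. Ikzf2 was at 1346, 1501 and 1415 CPM against 216, 250 and 438 CPM in CD8 T cells. With called doublets left out, its log2 difference was 2.39 from CD8 T cells and 3.34 from NK cells, against 2.31 and 3.33 with them. Cd7, a receptor of T and NK cells, was at 755, 988 and 799 CPM against 295, 242 and 384 in CD8 T cells and 349, 409 and 305 in NK cells. Trgc4 was at 73.1, 93.6 and 82.6 CPM against 3.38, 6.48 and 8.73, and 22.9, 23.1 and 28.5. Gzmc was at 57.5, 86.9 and 117 CPM against 27.1, 27.7 and 51.5 in NK cells, and the fifth gene was Gm4258. With cycling cells kept, Gzmc differed from NK cells by −0.61 (adjusted p = 0.12 by edgeR's quasi-likelihood test) in place of 1.27. Ikzf2 (3.02), Cd7 (0.83), Trgc4 (1.425) and Gm4258 (2.23) stayed higher than in NK cells. Gzmc was at 17.5, 84.9 and 67.25 CPM in NK-receptor T cells without Ncr1 UMIs and at 160, 92.5 and 207 CPM in those with them. The levels were thus close in the IL-10/2-Trikine library.

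**Figure D3:**
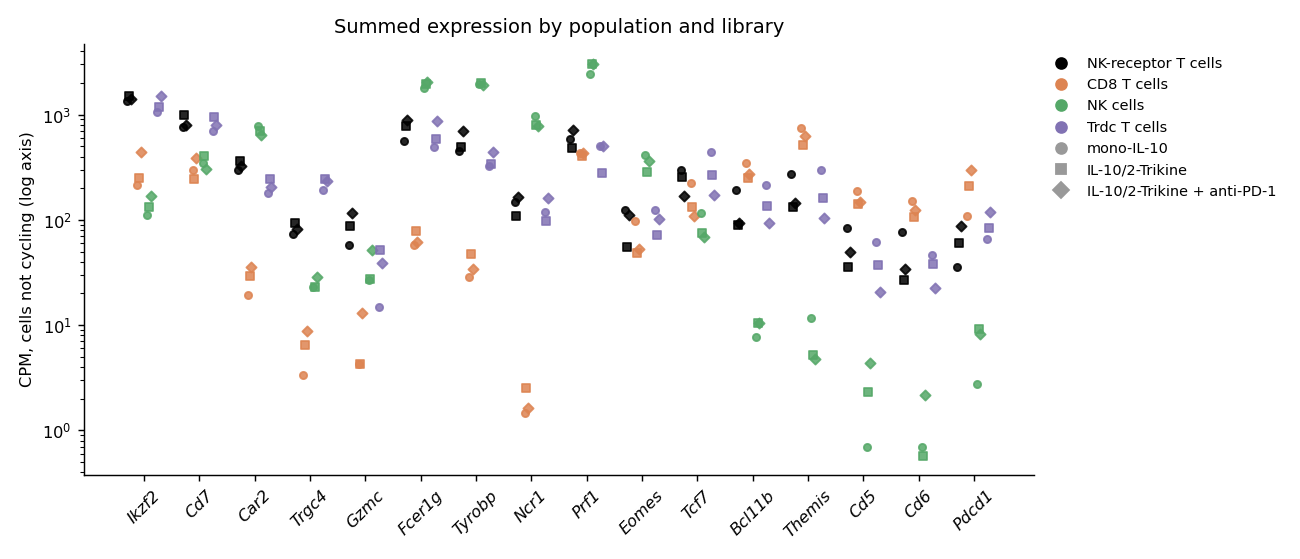
Summed CPM on a log axis in cells that were not cycling, for named genes in NK-receptor T, CD8 T, NK and Trdc T cells, 1 mark per library. Ikzf2 lay above both CD8 T and NK cells in all 3 libraries (1346 to 1501 CPM), Fcer1g and Tyrobp lay between them, and Themis, Cd5 and Cd6 lay below CD8 T cells and above NK cells in each library.

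The comparison with Trdc T cells found the fewest differences. It rested on 128, 492 and 310 Trdc T cells that were not cycling. CD8 T cells numbered 3240, 2230 and 2867 and NK cells 359, 481 and 664. In simulated data, 81% of 2-fold changes were recovered here, against 87% for CD8 T and 89.9% for NK cells. These shares came from a single draw each, without a library effect and with changes only in genes with high counts. Whether they differ beyond sampling error was not tested. The low count of differences also depends on cell numbers and is not a measure of likeness alone. Among 9091 genes tested, 51 (0.561%) were higher in NK-receptor T cells and 53 (0.583%) were lower by edgeR's quasi-likelihood test at an adjusted p below 0.05, out of 800.0 genes with an unadjusted p below 0.05. The Trdc T cells were not required to carry NK receptors. This comparison was added after values had been seen. T cell receptor chains led in both directions. Trac was at 925, 869 and 813 CPM against 206, 235 and 250.0 CPM (log2 difference 1.88, adjusted p = 2.7e-41) and Trbc2 was higher by 0.77. Trgc1 was at 12.6, 31.8 and 29.4 CPM against 134, 199.7 and 193 (−2.75, adjusted p = 1.3e-39), Trgc4 differed by −1.43 and Trgc2 by −1.08. All 6 tested gamma-delta genes were lower, and both Cd8a (1.48) and Cd8b1 (0.93) were higher. Trdc UMIs were required of one population and absent from the other, so the differences of T cell receptor genes partly restate the selection.

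Among the other named genes, those higher than in Trdc T cells were Klra9 (log2 difference 1.41), Klra4 (1.10), Klrb1b (0.71), ENSMUSG00000121360 (0.96), Tyrobp (0.58), Gzmc (1.18), Car2 (0.64) and Klhdc2 (0.61). Since NK receptor UMIs were required of one population only, the differences of Klra9, Klra4 and Klrb1b partly restate the selection. Gzmc was at 57.5, 86.9 and 117 CPM against 14.9, 51.4 and 38.7 CPM. Lower were Lilrb4b (−0.77), Irs2 (−0.63), Fos (−0.58), Tbc1d4 (−0.57), Serpina3g (−0.52), Dpp4 (−0.51), Pdcd1 (−0.51), Ifi214 (−0.49) and Smc4 (−0.47). Ikzf2 was detected at similar shares in both populations, as given above. By DESeq2 15 genes were higher and 13 lower. With the library term left out, 2 genes were higher and 7 lower, and without the IL-10/2-Trikine library 33 were higher and 30 lower. With cycling cells kept, 303 were higher and 322 lower.

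Levels in NK-receptor T cells that were not cycling were then set side by side between libraries. The question was which transcripts differed with the cytokine form and with the added antibody. There is 1 library per treatment, so genes were counted by a fold of at least 2 and no p-value is given. From mono-IL-10 to IL-10/2-Trikine, 313 of 10296 measured genes (3.04%) were past 2-fold higher and 379 (3.68%) past 2-fold lower. Over all genes the median log2 ratio was −0.11, and with TMM scaling in place of total UMIs 432 genes were higher and 230 lower, with a median of 0.06. From IL-10/2-Trikine to the combination, 244 of 10786 genes (2.26%) were past 2-fold higher and 180 (1.67%) past 2-fold lower, with a median of 0.03. Most of these genes had low counts, since with at least 50 UMIs in the pair the counts were 134 and 187, then 93 and 58.

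Of the 4 measured Ifitm genes, which encode small membrane proteins induced by interferons and other cytokines, 3 were above mono-IL-10 in the IL-10/2-Trikine library and 1, Ifitm10, was below it. Ifitm1 and Ifitm2 had the largest ratios of the named genes, followed by the cell cycle gene Pclaf and then Ifitm3. Ifitm1 was at 62.9, 641 and 201 CPM, a ratio of 10.2 (95% interval 8.39 to 12.5). Ifitm2 was at 37.1, 272 and 113 CPM (7.32, 5.68 to 9.59) and Ifitm3 at 31.2, 126 and 72.7 CPM (4.04, 3.05 to 5.45). All 3 were highest with IL-10/2-Trikine and intermediate in the combination, where Ifitm1 stood at 0.313 of IL-10/2-Trikine (0.291 to 0.337) and Ifitm2 at 0.414 (0.374 to 0.458). In CD8 T cells the log2 ratio of Ifitm1 was 2.27 for IL-10/2-Trikine over mono-IL-10 and −0.18 for the combination over IL-10/2-Trikine, in NK cells 1.32 and −0.27, and in Trdc T cells 5.23 and −1.74. At 2000 UMIs per cell, Ifitm2 was found in 5.70%, 28.2% and 12.1% of NK-receptor T cells, in 7.83%, 25.2% and 19.1% of CD8 T cells and in 5.88%, 11.4% and 12.3% of B cells. The share of B cells thus differed between libraries too, and the mono-IL-10 and combination values of NK-receptor T cells were not above it. Whether B cells expressed Ifitm2 or held it as free RNA was not tested.

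Gzma, which encodes the granzyme with the highest level of the genes named between libraries, was at 5108, 13559 and 10355 CPM, with a ratio of 2.65 (2.60 to 2.71) for IL-10/2-Trikine over mono-IL-10. Its log2 ratio was 1.41 in NK-receptor T cells, 1.62 in CD8 T cells, 0.56 in NK cells and 1.78 in Trdc T cells. A UMI of Gzma at 2000 UMIs per cell was found in 51.0%, 84.99% and 81.0% of NK-receptor T cells and in 9.24%, 28.0% and 26.6% of B cells. Lgals3 (galectin-3) was at 188, 466 and 257 CPM. The glycan enzyme gene Gcnt2 had a ratio of 2.44 and the lipid droplet gene Hilpda one of 2.40.

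Cell cycle transcripts were also among the higher genes, although cycling cells had been taken out. Pclaf was at 15.0, 86.4 and 37.1 CPM, Stmn1 at 43.1, 154 and 85.1, Ube2c at 17.98, 59.95 and 25.8, and Cks1b at 19.8, 50.04 and 26.3 CPM. Of 34 measured G2/M phase genes 19 were past 2-fold higher, beside 3.04% of all measured genes, with a median log2 ratio of 1.19 beside 0.22 in CD8 T cells, and in the combination over IL-10/2-Trikine the median of 37 such genes was −0.63. Of 33 measured S phase genes 7 were past 2-fold higher with IL-10/2-Trikine, with a median of 0.29. Cells holding 1 or 2 Mki67 and Top2a UMIs stayed in this set.

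Most of the measured effector cytokine and chemokine transcripts were lower in the IL-10/2-Trikine library, and 3 of 13 were higher. Ifng was at 144, 36.2 and 46.4 CPM, a ratio of 0.251 (0.208 to 0.302). The chemokine genes Ccl3, at 296, 56.9 and 42.8 CPM (0.192, 0.167 to 0.221), and Ccl4, at 1611, 368 and 446 CPM (0.228, 0.216 to 0.242), stayed low in the combination. Xcl1, a chemokine that attracts cross-presenting dendritic cells, was at 944, 348 and 749 CPM, so the combination stood 2.16-fold above IL-10/2-Trikine (2.04 to 2.28). Cxcl10 was at 87.5, 30.2 and 67.9 CPM. Of 13 measured genes of this group 7 were past 2-fold lower and 1 past 2-fold higher, beside 3.68% and 3.04% of all measured genes, and the median log2 ratio was −1.44, beside −1.37 in CD8 T, −1.10 in NK and −1.42 in Trdc T cells. Ifng, Ccl3, Ccl4 and Xcl1 were lower in other populations too, with log2 ratios for Ifng of −1.55 in CD8 T, −1.74 in NK and −1.85 in Trdc T cells, for Ccl3 of −1.37, −2.02 and −2.12, for Ccl4 of −1.74, −1.10 and −1.68, and for Xcl1 of −1.26, −0.52 and −0.96.

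Other genes among the 12 lowest were Jun, Zfp36, Myc, Rgs16, Pim2 and Cd6. Jun, part of the AP-1 transcription factor, was at 275, 47.4 and 55.02 CPM, a ratio of 0.172 (0.148 to 0.200). Zfp36, which encodes an RNA-binding protein that shortens the life of cytokine mRNAs, was at 309, 73.6 and 66.3 CPM, Myc at 54.5, 15.6 and 16.8 CPM and the signalling regulator Rgs16 at 162, 57.0 and 67.0 CPM. Pim2, a kinase gene that cytokines induce through STAT5, was at 99.5, 36.1 and 57.5 CPM and Cd6 at 76.1, 27.0 and 34.2 CPM. Jun was lower by −1.91 on the log2 scale in CD8 T cells, by −2.51 in NK cells and by −3.13 in Trdc T cells, beside −2.54 in NK-receptor T cells. Genes of this kind respond within minutes to handling of the cells, and a difference in handling between libraries cannot be told apart from the treatment.

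Other groups differed less. All 29 measured type I interferon-stimulated genes and all 14 interferon-gamma-induced GTPases had log2 ratios below 0 for IL-10/2-Trikine over mono-IL-10, but 26 and 13 of them with TMM scaling. Their medians were −0.66 and −0.70 against −0.11 for all genes, and −0.68 and −0.58 in CD8 T cells. The STAT3 and STAT5 response genes had a median of −0.65 over 19 genes, with 2 above 0, but −0.48 with 5 above 0 under TMM scaling. This list includes Myc, Fos and Junb, and a difference in handling cannot be told apart here either. Antigen receptor signal genes had a median of −0.64 over 14 (12 of them below 0 with TMM scaling). The immediate-early and heat shock genes had a median of −0.71 over 12, of which 4 were past 2-fold lower, beside 3.68% of all measured genes. Cytotoxic effectors had a median of 0.26 over 14 genes. Cd8a and Cd8b1 were both lower, with a median of −0.82.

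**Figure D4:**
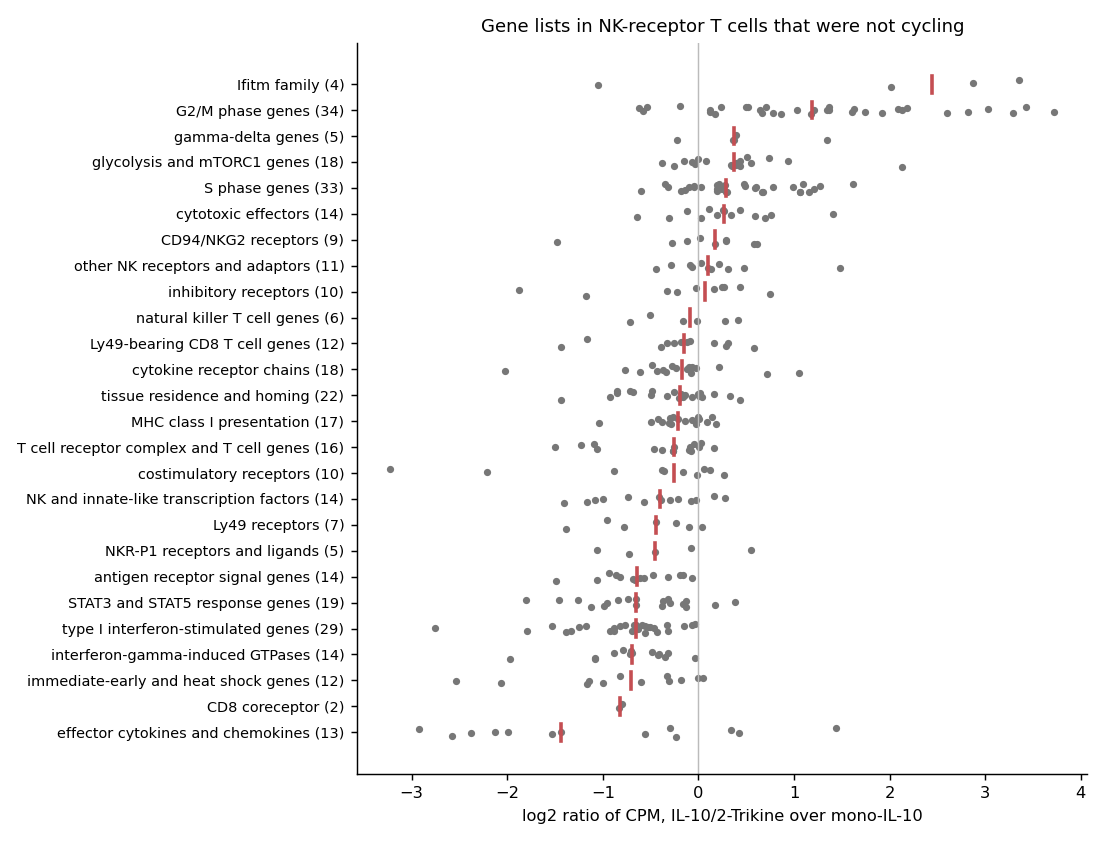
Log2 ratio of CPM for IL-10/2-Trikine over mono-IL-10 in NK-receptor T cells that were not cycling. Each row is a gene list with its number of measured genes, each point is a gene and the line marks the list's median. Among the lists shown, which leave out the marker lists of other cells, the Ifitm family (median 2.44) and G2/M phase genes (1.19) lay highest. Effector cytokines and chemokines (−1.44) lay lowest.

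From IL-10/2-Trikine to the combination, the GTPases induced by interferon-gamma were higher for all 14 measured genes, with a median log2 ratio of 0.75 against 0.03 for all genes, and the count was the same with TMM scaling. The median was 0.82 in CD8 T cells, 0.65 in NK cells and 0.42 in Trdc T cells. Igtp was at 114, 70.3 and 149 CPM, a ratio of 2.12 (1.88 to 2.40), and Gbp5 at 62.9, 38.3 and 79.5 CPM (2.07, 1.75 to 2.45). The combination thus stood above IL-10/2-Trikine and somewhat above mono-IL-10 for both. Igtp had log2 ratios of 1.09 in NK-receptor T, 1.04 in CD8 T, 0.49 in NK and 0.86 in Trdc T cells. Irf8, a transcription factor induced by interferon-gamma and receptor signals, was at 415, 372 and 777 CPM (2.09, 1.98 to 2.20). Eomes, a T-box factor of NK and memory T cells, was at 125, 55.6 and 112 CPM (2.02, 1.76 to 2.33), so its level in the combination was close to that with mono-IL-10.

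Ly49 genes outside the selection were higher in the combination as well, all 7 of those measured, with a median log2 ratio of 0.66 against −0.44 for IL-10/2-Trikine over mono-IL-10. In the combination over IL-10/2-Trikine, the medians of these genes were 0.52 in CD8 T cells, 0.09 in NK cells and 0.10 in Trdc T cells. Klra8 was at 96.5, 37.0 and 103 CPM, a ratio of 2.77 (2.36 to 3.26), while in NK cells its log2 ratio was 0.03. With called doublets left out its log2 ratio in NK-receptor T cells was 1.61, against 1.47 with them. The share of NK-receptor T cells with an Ncr1 UMI was 25.1% with IL-10/2-Trikine and 31.6% in the combination. Kctd12 was at 58.1, 32.3 and 74.7 CPM, the histone demethylase gene Kdm6b at 215, 136 and 272, Luzp1 at 49.1, 29.9 and 59.5 and Stx11, which serves granule release, at 76.1, 47.0 and 91.7 CPM. Genes lower in the combination were largely those that had been higher with IL-10/2-Trikine: the Ifitm genes, Pclaf (0.430 of IL-10/2-Trikine), Ube2c (0.431), Cks1b (0.525), Stmn1 (0.553) and Lgals3 (0.551). Both comparisons share the IL-10/2-Trikine library, so opposite directions in them are not separate results. Atp8a2 (0.511), Rasgrp2 (0.554) and Cst3 (0.556) were lower too.

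In cycling NK-receptor T cells, which had median depths of 14104.5, 12364 and 13541 UMIs, Ifitm1, Gzma, Jun, Ccl4 and Ifng had the same direction as in cells that were not cycling. For IL-10/2-Trikine over mono-IL-10, the log2 ratio was 2.64 for Ifitm1, 1.01 for Gzma, −2.27 for Jun, −1.98 for Ccl4 and −1.99 for Ifng. The G2/M gene Ube2c, at 1.74 in cells that were not cycling, was at −0.06 in cycling ones, and Pclaf at 0.33. For the combination over IL-10/2-Trikine, the log2 ratio in cycling cells was −2.12 for Ifitm1, 0.79 for Igtp, 0.50 for Irf8 and 0.43 for Klra8.

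Il1b and Spp1 are genes of myeloid cells. Il1b was at 25.8, 81.4 and 23.8 CPM and Spp1 at 207, 52.6 and 29.4 CPM in NK-receptor T cells that were not cycling. With called doublets left out, the log2 ratio of Il1b went from 1.66 to −1.39 for IL-10/2-Trikine over mono-IL-10 and from −1.78 to 1.19 for the combination over IL-10/2-Trikine. In cells with a Cd8 UMI, the log2 ratio of Spp1 for IL-10/2-Trikine over mono-IL-10 was 1.56 in place of −1.97. Neutrophils, which express Il1b, made up 0.544%, 1.09% and 0.197% of kept barcodes, and the part of free or mixed RNA in either gene was not tested.

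**Figure D5:**
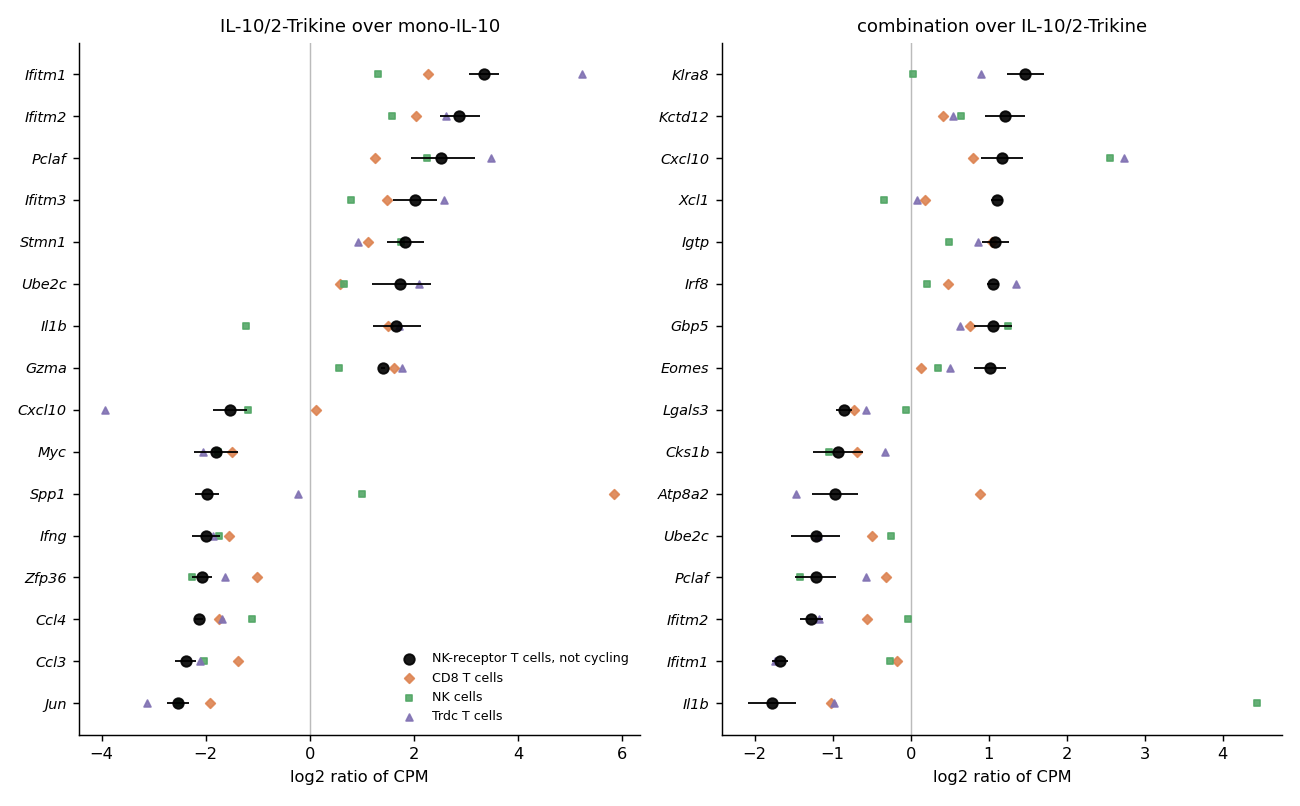
Log2 ratios of CPM for the 8 genes highest and 8 lowest in NK-receptor T cells that were not cycling, IL-10/2-Trikine over mono-IL-10 and combination over IL-10/2-Trikine, with 95% counting intervals as lines and the ratios of CD8 T, NK and Trdc T cells beside them. Ifitm1 (3.35) and Jun (−2.54) had the largest ratios in the first comparison and moved the same way in the other populations, whereas Spp1 was lower in NK-receptor T cells and higher in CD8 T cells, although it was higher (1.56) in NK-receptor T cells with a Cd8 UMI.

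NK-receptor T cells were not uniform. Those with an Ncr1 UMI were 23.9%, 25.1% and 31.6% of all. Among cells that were not cycling, they had less Ikzf2 than those without Ncr1 (462, 1034 and 827 CPM against 1690, 1669 and 1736) and less Trac (496, 637 and 626 against 1092, 952 and 915 CPM). They had more Prf1, which encodes perforin, at 1308, 914 and 1263 CPM against 312, 322 and 406, and more Tyrobp at 1075, 990 and 1196 CPM against 205, 311 and 421. These genes were picked to show how the cells varied, and no count over all genes was made. The direction of these differences is also that from T cells to NK cells, and the part of mixed droplets was not tested. Cells with a Cd8 UMI had more Themis than cells without (482, 283 and 342 CPM against 108, 71.7 and 53.6) and more Pdcd1 (44.3, 113 and 192 against 29.2, 39.5 and 38.7), and less Fcer1g (413, 507 and 478 against 681, 888 and 1093). Ikzf2 was at 1099, 1449 and 1408 CPM with Cd8 and 1545, 1521 and 1418 CPM without, so the levels were closer in the IL-10/2-Trikine and combination libraries than in the mono-IL-10 library.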

How the data were processed

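Gene expression was measured in 3 libraries (10x 3' v3.1 chemistry) of live CD45+ cells. The deposited counts are UMI counts per gene and barcode that the authors made with Cell Ranger. The header of each matrix names version 8.0.0, the methods another version. The labels name mm10 and the methods GRCm39 with introns counted, so no coordinates are given, and no sequences are printed. The files hold 33696 genes and include empty droplets. The study's text gives fewer cells than the same limits left here.

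Groups followed the titles and treatment labels. Cells and lists (33 lists, 468 genes, 4 of them absent from the files) were chosen with earlier results of these data known. Populations were defined by UMI conditions, with no clustering. Levels are CPM of summed counts, and ratios were measured for genes with at least 20 UMIs in the pair. Shares carry exact (Clopper-Pearson) 95% intervals, share ratios log intervals and CPM ratios exact conditional intervals. Doublets were scored with scrublet in scanpy 1.11.5. Its automatic limits called 14.8%, 20.6% and 6.73% of barcodes, so the share expected from cell number was called in their place, a limit set after the data were seen. Population contrasts used edgeR 4.0.16 in R 4.3.3 (quasi-likelihood test, TMM, library term, n = 3 libraries, Benjamini-Hochberg adjustment), and DESeq2 1.42.0 as an alternative, and were tested on simulated data. Named genes were the 12 largest differences each way among genes past an adjusted p of 0.05 (or, between libraries, by ratio) with at least 50 CPM in the higher group and the same direction in all libraries, and 1 of them is not reported here. Python 3.11.15, NumPy 2.4.6, SciPy 1.17.1, pandas 2.3.3 and Matplotlib 3.10.9 were used.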

Additional observations from a re-analysis of the deposited data

Results flagged for a closer look

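Spp1 and Il1b, both known as genes of myeloid cells, had opposite directions in NK-receptor T cells and in a population compared with them. The log2 ratio of Spp1 for IL-10/2-Trikine over mono-IL-10 was −1.97 in NK-receptor T cells that were not cycling and 5.85 in CD8 T cells, but 1.56 in NK-receptor T cells with a Cd8 UMI. For Il1b it was 1.66 in NK-receptor T cells and −1.23 in NK cells. For the combination over IL-10/2-Trikine, the log2 ratio of Il1b was −1.78 in NK-receptor T cells and 4.44 in NK cells. With 1 library per treatment, none of these differences could be tested.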

How the results depend on the processing

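The share of NK-receptor T cells kept its direction in both comparisons under all 8 alternatives run for each. For IL-10/2-Trikine over mono-IL-10 the ratio of 6.42 became 7.68 with at least 4 receptor UMIs, 8.06 without called doublets and 4.19 over Cd3 barcodes. For the combination over IL-10/2-Trikine the ratio of 0.447 became 0.407 with at least 4 Cd3 UMIs, 0.410 with at least 4 receptor UMIs, 0.377 without called doublets and 0.535 over Cd3 barcodes. The cycling ratios became 3.62 and 0.468 when cells were thinned before selection, and 1.65 and 0.679 with 1 Mki67 or Top2a UMI as the limit. Of the counts past 2-fold for IL-10/2-Trikine over mono-IL-10, those higher were 134 with at least 50 UMIs in the pair and 521 with cycling cells, and those lower were 230 with TMM, 236 with median-of-ratios factors, 187 with at least 50 UMIs and 914 with cycling cells. For the combination they were 93 higher and 58 lower with at least 50 UMIs. Of 26 gene lists, 2 had a median at least 0.5 log2 higher with IL-10/2-Trikine and 7 at least 0.5 lower. The first count was 4 with TMM, with median-of-ratios factors and with cycling cells, and the second was 4 with TMM and 12 with cycling cells. For the combination 2 lists were lower, but 1 in cells with a Cd8 UMI. The log2 ratio of Il1b turned to −1.39 and 1.19 without called doublets, and that of Spp1 for IL-10/2-Trikine over mono-IL-10 to 1.56 in cells with a Cd8 UMI. Causes of these moves were not tested.

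Counts of genes higher and lower than in CD8 T cells were 649 and 493 by DESeq2 and 413 and 245 without the library term, 798 higher with cycling cells, and 883 to 1186 and 717 to 1031 without 1 library. Against NK cells they were 479 and 603 by DESeq2, 407 and 531 without the library term, 2017 and 1880 with cycling cells, and 816 to 935 and 830 to 1129 without 1 library. Against Trdc T cells they were 15 and 13 by DESeq2, 2 and 7 without the library term, 303 and 322 with cycling cells, 80 higher with no filter on low counts, 30 lower after thinning, and 33 to 54 and 30 to 50 without 1 library, lowest in both directions without IL-10/2-Trikine. The named genes kept their call in 216 of 216 alternatives each against CD8 T and NK cells, and lost it in 56 of 216 against Trdc T cells. Population contrasts compared cells within each library. Between treatments, no paired analysis was possible because each has 1 sample and all carry the same replicate number. With 389 NK-receptor T cells in the mono-IL-10 library, low genes there are the least precise.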

Other observations

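Further gene groups separated NK-receptor T cells that were not cycling from CD8 T cells, by edgeR's quasi-likelihood test within the 3 libraries. Of 16 transcription factors of NK and innate-like lymphocytes, 8 were higher than in CD8 T cells and 4 lower, beside 10.5% and 8.74% of all genes tested. Of 14 tested against Trdc T cells, 0 were higher and 1, Rora, was lower, beside 0.561% and 0.583%. Zbtb16, which encodes PLZF, the factor that directs natural killer T cells, was at 27.6, 33.3 and 38.7 CPM against 1.13, 1.93 and 2.73 CPM (log2 difference 4.12, adjusted p = 2.7e-07). Tbx21 (T-bet) was at 114, 86.9 and 134 CPM against 70.6, 58.4 and 70.2 CPM (0.75, adjusted p = 0.00011). A Zbtb16 UMI was found in 12.9%, 14.5% and 15.8% of NK-receptor T cells. Of 6 tested natural killer T cell genes, 1 was higher and 3 were lower, the latter being Icos, Cxcr6 and Slamf6.

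Genes of tissue residence and homing differed in both directions, with 6 of 22 higher and 9 lower than in CD8 T cells, against 10.5% and 8.74% of all genes. Compared with Trdc T cells, 0 of the 22 were higher and 3 were lower, beside 0.561% and 0.583%. Itga1, the integrin CD49a of tissue-resident lymphocytes, was at 217, 273 and 225 CPM, against 102, 112 and 130.4 CPM in CD8 T cells (log2 difference 1.06, adjusted p = 2.5e-05) and 98.7, 114 and 137 CPM in NK cells (0.98, adjusted p = 6.6e-09). Lower than in CD8 T cells were the recirculation genes Ccr7, S1pr1 and Klf2. Cd160, a receptor of intraepithelial lymphocytes and NK cells, was at 239, 295 and 218 CPM, above CD8 T cells by 1.38 and above NK cells by 1.14 on the log2 scale. Neither Itga1 nor Cd160 was called different from Trdc T cells. Itga1 and Cd160 were chosen after their values had been seen.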
